A study of Mus musculus with 8 samples.

Results

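To describe the glial cells of the pineal gland in 5xFAD mice, which model amyloid deposition in Alzheimer's disease (AD), 10 genes of astrocytes and of glial reactivity were followed through 8 RNA sequencing libraries. They are Gfap, Vim, Slc1a3, Slc1a2, Aqp4, Gja1, Aldh1l1, Aldoc, S100b and Serpina3n, taken by gene name from a table of 53710 genes, in which each name had 1 row. All 10 passed the filter of a mean of at least 1 FPKM (sequenced fragments scaled to transcript length and to library size), as did 13075 protein-coding genes in all.

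Each library was a pool of pineal glands from 5 to 7 male mice aged 5 months, killed 0.5 h after lights on. The 4 wild type libraries (Normal-11, Normal-21, Normal-22 and Normal-23) came from C57BL/6 mice. The 4 mutant libraries, 5xFAD-21 and those titled 5xFAD-1, -2 and -3, came from B6 congenic mice that carry the 5xFAD transgenes, among them human APP with the Swedish, Florida and London mutations. The transgenes are driven by the Thy1 promoter, which is active in neurons rather than in glia. The groups came from different suppliers, so supplier and genotype cannot be told apart.

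Astrocytes are the glia that take up glutamate and potassium, pass water and metabolites between blood and nerve cells, and thicken their filament skeleton when the tissue is injured or holds amyloid, a state called reactivity. The pineal gland is made mainly of pinealocytes, the cells that make melatonin, and holds a smaller number of interstitial cells that share markers with astrocytes, next to vessels, microglia and the capsule. In bulk tissue, fewer cells of a type and less RNA per cell cannot be told apart.

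The libraries differed in what else they held. The summed level of 10 pinealocyte markers, Tph1, Asmt and Aanat among them, ranged over 1353 to 3186 FPKM among wild type pools and 2084 to 3412 FPKM among 5xFAD pools, so the labelled tissue was present in every pool. Normal-22 and 5xFAD-21 were the lowest of their groups for markers of fibroblasts, endothelium, smooth muscle, microglia and bone. For fibroblasts their sums were 470.2 and 368.1 FPKM, in groups that reached 4030 FPKM in wild type and, in 5xFAD, 1229 FPKM. The choroid plexus list without Ttr summed to 54.22 FPKM in 5xFAD-1 and to between 364.7 and 862.2 FPKM in the other 7 libraries, while Ttr itself was listed at 0 in all 4 5xFAD libraries. A listed 0 in this table can be a failed estimate, since Malat1, an abundant RNA of nearly every cell, was listed at 0 in all 8 libraries. Brown fat markers summed to 724.8 FPKM in 5xFAD-2 and at most 6.696 FPKM elsewhere. Against the study's description of the mice as male, Xist was listed at 13.3 FPKM in Normal-22 and at most 0.0404 FPKM in the other 7 libraries. The Y-linked genes Ddx3y, Eif2s3y and Kdm5d were present in all 8 libraries, so Normal-22 held RNA of male mice too. Whether that pool also held a female gland was not tested. Libraries with titles numbered 21 to 23 were 3 of the 4 wild type and 1 of the 4 5xFAD libraries, so each difference is also given within that set of titles and within the rest. Each of these differences rests on a single library on one side. That library is 5xFAD-21 within titles 21 to 23 and Normal-11, of wild type, within the rest.

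The 10 genes spread over a wide range of levels, and since FPKM is per length their levels can be ordered. By mean log2 level the order was Vim, Gja1, Slc1a2, Aldoc, S100b, Gfap, Serpina3n, Aqp4, Aldh1l1 and Slc1a3. Vim ranked 440 and Slc1a3 10188 among the 13075 genes, and Gfap, the best known astrocyte marker, ranked 2867. Of the 9 neighbours in this order, 3 pairs differed beyond their spread over the 8 libraries by an exact sign-flip permutation test (two-sided). Vim lay above Gja1 by 1.26 on the log2 scale in 8 of 8 libraries (adjusted p = 0.0352), Slc1a2 above Aldoc by 0.48 in 7 of 8 (adjusted p = 0.0469), and Aqp4 above Aldh1l1 by 1.43 in 8 of 8 (adjusted p = 0.0352). The other 6 pairs had adjusted p between 0.457 and 0.961, so neighbours from Aldoc down to Aqp4 did not differ beyond their spread. With 1 library left out the test has fewer sign changes, and 0 to 3 pairs passed.

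**Figure D1:**
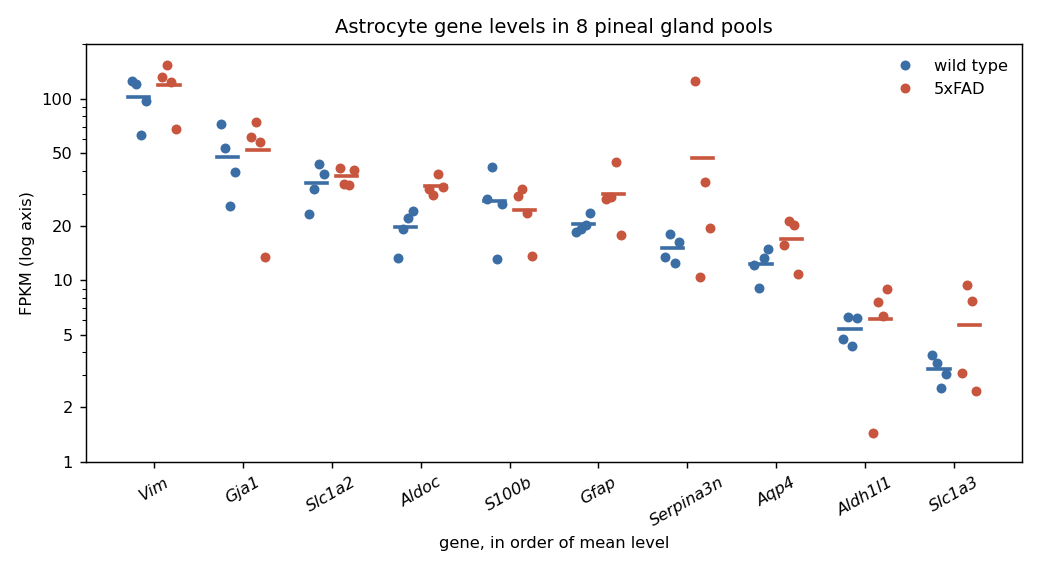
Level of each gene in FPKM on a log axis, genes in order of mean level, with 1 point per library and a bar at each group's mean (4 wild type and 4 5xFAD pools). Aldoc is the single gene whose 4 5xFAD points, 29.5 to 38.2 FPKM, all lie above the 4 wild type points, 13.3 to 24.2 FPKM.

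Between the genotypes, 0 of the 10 genes passed an adjusted p of 0.05 (limma on log2(FPKM + 0.1), Benjamini-Hochberg over 13075 genes), where 4 of all genes did (0.0306%), Ttr with its listed zeros among them. At an unadjusted p under 0.05, 1 of the 10 was higher in 5xFAD (Aldoc), beside 4.57% of all genes, and 0 were lower, beside 3.36%. With libraries scaled to the same protein-coding total, these shares of all genes were 6.76% and 1.66%. Without 5xFAD-21 the higher genes numbered 4 (Gfap, Aqp4, Slc1a3 and Aldoc), beside 4.05% of all genes, and none had an adjusted p under 0.05. Every 5xFAD library lay above every wild type library for 1 of the 10 genes (2.1% of all genes) and below for 0 (2.23%). The log2 fold change, 5xFAD minus wild type, was above 0 for 7 genes and below 0 for 3, beside 48.74% of all genes above 0, and its median was 0.32, beside -0.0074 over all genes tested. All 10 genes varied more within a group than the median gene did, with a median within-group SD of 0.55 on the log2 scale beside 0.26.

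**Figure D2:**
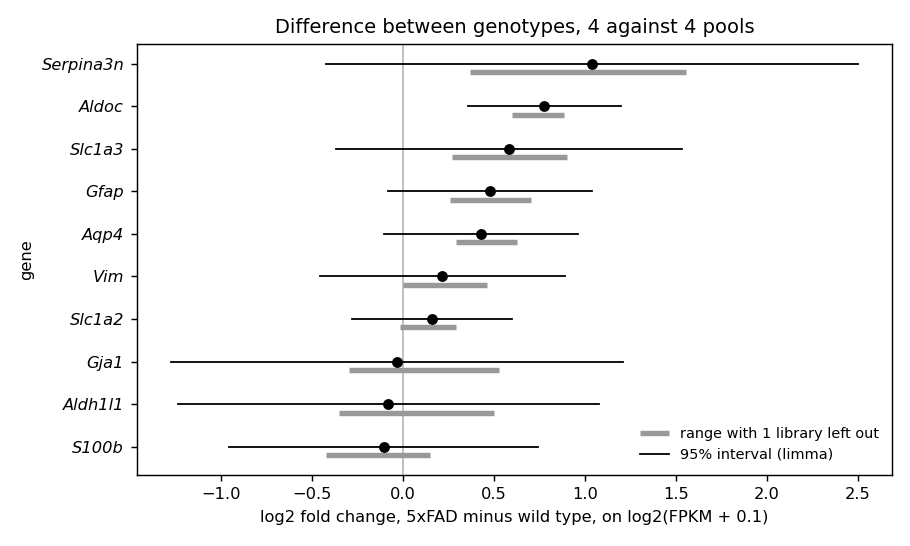
Log2 fold change of each gene on the log2(FPKM + 0.1) scale, 5xFAD minus wild type, with the 95% interval from limma (black line) and the range of the fold change when 1 of the 8 libraries is left out (grey bar). The interval of Aldoc, 0.35 to 1.19, is the single one that lies clear of 0, and the grey bars of Slc1a2, Gja1, Aldh1l1 and S100b cross 0.

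Aldoc encodes aldolase C, the glycolytic enzyme that cleaves fructose bisphosphate in astrocytes and in some neurons (ENSMUSG00000017390.15, chr11:78322968-78327781, plus strand, GRCm38). With the libraries in number order (Normal-11, Normal-21, Normal-22, Normal-23, then 5xFAD-1 to 5xFAD-3 and 5xFAD-21), which is kept for every gene, its level was 13.3, 19.2, 21.98 and 24.2 FPKM in the wild type libraries and 31.9, 29.5, 38.2 and 32.6 FPKM in the 5xFAD libraries. The groups did not overlap, and the lowest library was Normal-11. The means were 19.7 ± 4.70 and 33.0 ± 3.69 FPKM (SD, n = 4 each), a log2 fold change of 0.77 ± 0.18 (SE; unadjusted p = 0.00252; limma adjusted p = 0.516). Within the libraries titled 21 to 23 the log2 difference was 0.58. Among the others, where Normal-11 is the single wild type library, it was 1.30. With any 1 library left out it stayed between 0.60 and 0.89.

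Aldolase A, the broad paralog from Aldoa, was far higher than Aldoc, at 873 ± 202 FPKM in wild type and, in 5xFAD, 1051 ± 183 FPKM (log2 fold change 0.28 ± 0.22, limma adjusted p = 0.750). The ratio of Aldoc to Aldoa within a library was 0.0226 ± 0.00331 in wild type and 0.0328 ± 0.0109 in 5xFAD, a log2 difference of 0.50. All 4 5xFAD ratios lay above the wild type ratios, with 0.0263 in 5xFAD-2 next to 0.0261 in Normal-23, and the highest was 0.0491 in 5xFAD-3. The exact permutation test gave p = 0.0286, the smallest that 4 against 4 libraries allow, and 0.143 after adjustment over the 5 ratios computed.

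RefSeq gives 2 starts for Aldoc. The stretch before the upstream start that lies outside annotated exons, chr11:78322823-78322967 (GRCm38.p6, plus strand, 145 bases), is shown because Aldoc was the one gene whose groups did not overlap:
Aldoc: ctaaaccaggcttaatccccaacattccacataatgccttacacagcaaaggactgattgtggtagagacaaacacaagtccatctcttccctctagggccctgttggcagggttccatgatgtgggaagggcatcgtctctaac
Positions are counted back from the start, with -1 the base just before it. A search of the 250 bases before each start covered 9 of the 10 genes, on both strands, for the STAT letters TTCNNNGAA (in 7.02% of all 32851 promoter windows of this length), the AP-1 letters TGANTCA (6.75%) and the TATA letters TATAAA (12.4%). No motif searched overlaps another in these windows. The window before the downstream Aldoc start held the STAT letters at -124 to -116 and at -83 to -75, in a part that is exonic for other Aldoc transcripts and is not printed. The stretch shown held none of the 3 motifs. A match is a run of letters and was not tested for binding.

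Aldh1l1 encodes the folate enzyme 10-formyltetrahydrofolate dehydrogenase, used as a marker of astrocytes throughout the brain (ENSMUSG00000030088.15, chr6:90486427-90600203, plus strand). It was low, at 4.76, 6.30, 4.34 and 6.20 FPKM in the wild type libraries and 1.44, 7.63, 6.33 and 8.96 FPKM in the 5xFAD libraries. The 5xFAD libraries held both the lowest and the 3 highest values. The group means were 5.40 ± 0.997 and 6.09 ± 3.28 FPKM (log2 fold change -0.08 ± 0.51, limma adjusted p = 0.973), and the log2 differences within the 2 sets of titles were 0.68 for titles 21 to 23 and -0.19 for the rest. Without 5xFAD-1 the log2 fold change was 0.50 ± 0.19 (unadjusted p = 0.0325, limma adjusted p = 0.752). The same library was the lowest for the choroid plexus list, and over the 8 libraries Aldh1l1 followed that list with Pearson's r = 0.95 and Spearman's rho = 0.55. Without Normal-22 and 5xFAD-1, the 2 libraries farthest from the middle of that list, r was 0.31. With the ependyma list r was 0.83, and 0.88 without 5xFAD-1 and 5xFAD-2. The part of these cells in the level of Aldh1l1 was not tested. Its close paralog Aldh1l2, the mitochondrial form, was below the filter.

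Gfap encodes glial fibrillary acidic protein, the filament of mature and of reactive astrocytes (ENSMUSG00000020932.14, chr11:102887336-102900912, minus strand). Its level was 18.5, 19.1, 20.3 and 23.5 FPKM in the wild type libraries and 28.0, 28.7, 44.9 and 17.7 FPKM in the 5xFAD libraries. Apart from 5xFAD-21, the lowest of the 8 libraries, the 5xFAD pools lay above all of wild type. The means were 20.3 ± 2.22 and 29.8 ± 11.2 FPKM, a log2 fold change of 0.48 ± 0.25 (unadjusted p = 0.0854, limma adjusted p = 0.643; 95% interval -0.08 to 1.04). Within titles 21 to 23 the log2 difference was -0.24, and among the rest 0.83, so its sign was not the same in the 2 sets. Without 5xFAD-21 the log2 fold change was 0.70 ± 0.19 (unadjusted p = 0.00575, limma adjusted p = 0.590), but no 5xFAD library titled 21 to 23 is then left. With the set of titles as a term and all libraries kept it was 0.30 ± 0.27 (limma adjusted p = 0.627).

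Vim encodes vimentin, the filament of radial and reactive glia and of fibroblasts and endothelium (ENSMUSG00000026728.9, chr2:13573927-13582826, plus strand). It was the most abundant of the 10, at 126, 121, 63.0 and 97.0 FPKM in the wild type and 132, 152, 123 and 68.0 FPKM in the 5xFAD libraries. Normal-22 and 5xFAD-21 were the lowest, and the groups overlapped. The means were 102 ± 28.7 and 119 ± 36.1 FPKM (log2 fold change 0.21 ± 0.30, limma adjusted p = 0.844), with log2 differences of -0.41 within titles 21 to 23 and 0.11 among the rest. The ratio of Gfap to Vim was 0.217 ± 0.0814 in wild type and 0.256 ± 0.0784 in 5xFAD (log2 difference 0.26, exact permutation p = 0.457, adjusted p = 0.629). Reactive astrocytes carry both filaments, so this ratio asks whether Gfap differed from Vim within a library, and the groups overlapped. The Vim window held the TATA letters at -32 to -27, and it lies inside an annotated Vim exon and is not printed.

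Slc1a3 and Slc1a2 encode the glutamate transporters GLAST and GLT-1, the pair that clears glutamate in the brain. Slc1a3 (ENSMUSG00000005360.14, chr15:8634124-8710764, minus strand) was the lowest of the 10 genes by mean log2 level. It was 3.88, 3.52, 2.56 and 3.05 FPKM in wild type and, in 5xFAD, 3.10, 9.42, 7.68 and 2.44 FPKM. Only 5xFAD-2 and 5xFAD-3 stood above the wild type range, and 5xFAD-21 was again the lowest. The means were 3.25 ± 0.572 and 5.66 ± 3.42 FPKM (log2 fold change 0.58 ± 0.42, limma adjusted p = 0.731), with log2 differences of -0.30 within titles 21 to 23 and 0.64 among the rest. With the set of titles as a term the log2 fold change of Slc1a3 was 0.17 ± 0.42 (limma adjusted p = 0.875). 5xFAD-2, its highest library, was also the library with brown fat markers, whose part in the value was not tested.

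Slc1a2 (ENSMUSG00000005089.15, chr2:102658659-102790784, plus strand) was 23.1, 31.9, 43.7 and 38.2 FPKM in wild type and, in 5xFAD, 41.7, 33.9, 33.3 and 40.5 FPKM. All 4 5xFAD values lay inside the wild type range. The means were 34.2 ± 8.86 and 37.4 ± 4.36 FPKM (log2 fold change 0.16 ± 0.19, limma adjusted p = 0.825), with log2 differences of 0.10 within titles 21 to 23 and 0.64 among the rest. By FPKM, GLT-1 mRNA outnumbered GLAST mRNA in every library, by a ratio of 11.2 ± 4.77 in wild type and 9.50 ± 6.52 in 5xFAD (log2 difference -0.42, exact permutation p = 0.543, adjusted p = 0.629). The ratio was lowest in 5xFAD-2 (3.60) and highest in Normal-22 (17.1). Of the rest of the SLC1 family, Slc1a4 and Slc1a5, which carry neutral amino acids, passed the filter and had log2 fold changes of 0.04 and 0.01. The neuronal transporters Slc1a1 and Slc1a6 and the retinal Slc1a7 did not pass it.

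Aqp4 encodes aquaporin-4, the water channel of astrocyte endfeet (ENSMUSG00000024411.9, chr18:15389496-15410982, minus strand). It was 12.1, 9.11, 13.3 and 14.9 FPKM in wild type and, in 5xFAD, 15.6, 21.1, 20.1 and 10.8 FPKM. As for Gfap, the 5xFAD pools other than 5xFAD-21 lay above all of wild type, and 5xFAD-21 lay within the wild type range. The means were 12.3 ± 2.43 and 16.9 ± 4.72 FPKM (log2 fold change 0.43 ± 0.23, unadjusted p = 0.101, limma adjusted p = 0.655; 95% interval -0.10 to 0.96), with log2 differences of -0.16 within titles 21 to 23 and 0.63 among the rest. Without 5xFAD-21 the log2 fold change was 0.63 ± 0.19 (unadjusted p = 0.0120, limma adjusted p = 0.632), with no 5xFAD library titled 21 to 23 left. With the set of titles as a term and all libraries kept it was 0.23 ± 0.25 (limma adjusted p = 0.680). Of the other aquaporins listed, Aqp1, the channel of choroid plexus and vessels, had a log2 fold change of -0.32 ± 0.45 and Aqp11 of 0.01 ± 0.23.

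Gja1 encodes connexin 43, the gap junction protein that joins astrocytes and also fibroblasts and vessel cells (ENSMUSG00000050953.10, chr10:56377330-56402513, plus strand). It was 72.3, 53.7, 25.7 and 39.4 FPKM in wild type and, in 5xFAD, 61.9, 74.4, 57.8 and 13.4 FPKM. The lowest of each group were again Normal-22 and 5xFAD-21. The means were 47.8 ± 19.9 and 51.9 ± 26.6 FPKM, and the log2 fold change was -0.04 ± 0.55 (limma adjusted p = 0.988; 95% interval -1.28 to 1.21). The log2 difference was -1.49 within titles 21 to 23, where 5xFAD-21 is the single 5xFAD library, and -0.17 among the rest. With the set of titles as a term the log2 fold change was -0.83 ± 0.34 (unadjusted p = 0.0432, limma adjusted p = 0.397), and without 5xFAD-21 it was 0.53. The ratio of Gja1 to Aqp4 was 4.12 ± 2.13 in wild type and 2.90 ± 1.20 in 5xFAD (log2 difference -0.46, exact permutation p = 0.429, adjusted p = 0.629).

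Connexin 30 from Gjb6, the other astrocyte connexin, was 28.4 ± 10.4 FPKM in wild type and, in 5xFAD, 22.4 ± 10.4 FPKM (log2 fold change -0.39 ± 0.42, limma adjusted p = 0.806). Of 15 connexins listed beside Gja1, 5 passed the filter, 2 with a log2 fold change above 0 and 3 below, with a median of -0.13. Among these, Gjd2, the neuronal connexin 36, had a log2 fold change of 0.27, Gjb2 of -0.23, Gjc1 of -0.13 and Gja4 of 0.01. None of the 5 had an unadjusted p under 0.05.

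S100b encodes a calcium-binding protein that astrocytes hold and secrete, also made by Schwann cells and oligodendrocytes (ENSMUSG00000033208.7, chr10:76253853-76261159, plus strand). It was 27.9, 41.8, 13.04 and 26.2 FPKM in wild type and, in 5xFAD, 28.9, 31.9, 23.4 and 13.7 FPKM. Normal-22 and 5xFAD-21 were the lowest here too. The means were 27.2 ± 11.8 and 24.5 ± 8.03 FPKM (log2 fold change -0.11 ± 0.37, limma adjusted p = 0.944), with log2 differences of -0.82 within titles 21 to 23 and -0.0039 among the rest. Of 11 other S100 genes, 10 passed the filter, 5 above 0 and 5 below, with a median of -0.03. Their log2 fold changes lay between -0.91 and 0.49. The smallest p of these was that of S100a4, a fibroblast and immune cell gene (23.8 ± 12.5 against 12.8 ± 6.93 FPKM, log2 fold change -0.91 ± 0.54, limma adjusted p = 0.684).

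The windows before Gja1 (chr10:56377050-56377299, plus strand) and S100b (chr10:76253586-76253835, plus strand) are shown because these genes were low in the same libraries as Vim. Capitals mark the AP-1 letters, at -19 to -13 before the Gja1 start, and the S100b window held none of the 3 motifs:
Gja1: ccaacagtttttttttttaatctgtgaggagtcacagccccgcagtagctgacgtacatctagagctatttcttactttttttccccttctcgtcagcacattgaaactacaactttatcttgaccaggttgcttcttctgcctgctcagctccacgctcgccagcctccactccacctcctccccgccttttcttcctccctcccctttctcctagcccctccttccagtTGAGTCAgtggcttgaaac
S100b: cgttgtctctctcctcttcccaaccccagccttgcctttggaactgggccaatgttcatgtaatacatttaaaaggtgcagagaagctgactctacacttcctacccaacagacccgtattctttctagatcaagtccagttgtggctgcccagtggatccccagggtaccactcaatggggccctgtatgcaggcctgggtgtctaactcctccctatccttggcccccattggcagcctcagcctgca

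Serpina3n encodes a secreted serine protease inhibitor that is a leading gene of reactive astrocytes and also responds to acute phase signals (ENSMUSG00000021091.8, chr12:104406729-104414329, plus strand). Its level was 13.4, 17.9, 12.4 and 16.3 FPKM in wild type and, in 5xFAD, 125, 10.4, 34.9 and 19.3 FPKM. The wild type libraries lay close together, while the 5xFAD libraries held the lowest value of all, in 5xFAD-2, and the 3 highest. The highest library was 11.9 times the lowest, and the within-group SD of 1.09 on the log2 scale was above that of 96.7% of the genes tested. The means were 15.0 ± 2.55 and 47.3 ± 52.5 FPKM (log2 fold change 1.04 ± 0.64, limma adjusted p = 0.699; 95% interval -0.42 to 2.50), with log2 differences of 0.32 within titles 21 to 23 and 1.40 among the rest.

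The size of this difference rested on single libraries. Without 5xFAD-1 the log2 fold change of Serpina3n was 0.37, and without 5xFAD-2 it was 1.55 ± 0.55 (unadjusted p = 0.0242, limma adjusted p = 0.894). The ratio of Serpina3n to Gfap was 4.45 in 5xFAD-1 and between 0.363 and 1.09 in the other 7 libraries (log2 difference 0.56, exact permutation p = 0.629, adjusted p = 0.629), and without 5xFAD-1 the log2 difference was -0.12. 5xFAD-1 was also the library with the lowest choroid plexus sum, and the part of this in the value was not tested. In the Serpina3 cluster, where near-identical copies can share reads, Serpina3g was the single other protein-coding gene to pass the filter (log2 fold change -0.61 ± 0.55), and 8 others did not. Serpina3h, annotated as a transcribed pseudogene, had a mean of 1.29 FPKM and was not among the genes tested.

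The windows before Gfap (chr11:102897201-102897450, minus strand), Slc1a3 (chr15:8710808-8711057, minus strand) and Serpina3n (chr12:104406458-104406707, plus strand) are shown as those of the classical filament, of the least abundant transporter, and of the gene with the widest spread. Capitals in the Slc1a3 window mark the TATA letters on the opposite strand at -161 to -156 and the STAT letters at -96 to -88, and the windows of Gfap and Serpina3n held none of the 3 motifs:
Gfap: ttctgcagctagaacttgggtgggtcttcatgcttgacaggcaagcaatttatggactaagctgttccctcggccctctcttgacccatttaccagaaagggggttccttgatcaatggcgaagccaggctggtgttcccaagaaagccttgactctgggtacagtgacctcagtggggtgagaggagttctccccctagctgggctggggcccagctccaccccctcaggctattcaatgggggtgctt
Slc1a3: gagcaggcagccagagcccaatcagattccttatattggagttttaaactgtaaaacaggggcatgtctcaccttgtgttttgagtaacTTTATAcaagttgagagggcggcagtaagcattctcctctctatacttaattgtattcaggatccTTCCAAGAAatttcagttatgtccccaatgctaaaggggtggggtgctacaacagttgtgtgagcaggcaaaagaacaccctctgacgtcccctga
Serpina3n: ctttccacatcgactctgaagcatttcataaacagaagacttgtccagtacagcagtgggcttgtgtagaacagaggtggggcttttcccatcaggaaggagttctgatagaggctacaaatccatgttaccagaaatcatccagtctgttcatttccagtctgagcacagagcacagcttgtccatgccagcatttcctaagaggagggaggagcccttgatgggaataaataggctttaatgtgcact

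Some of these genes moved together from pool to pool, whatever the genotype. Over the 8 libraries, which share one normalization, Vim and Gja1 had Pearson's r = 0.92 and Spearman's rho = 0.95, and r was 0.91 without Normal-22 and 5xFAD-21. Gfap and Aqp4 had r = 0.85 and rho = 0.90, and r was 0.97 without Normal-21 and 5xFAD-2. S100b followed Vim (r = 0.88) and Gja1 (r = 0.82), but without Normal-22 and 5xFAD-21 these were 0.25 and 0.11, so they rest on those 2 libraries. Slc1a3 followed Gfap (r = 0.72) and Aqp4 (r = 0.74), and without 5xFAD-2 and 5xFAD-3 these were 0.03 and -0.16, so they rest on that pair. Slc1a3 also followed Vim (r = 0.71, rho = 0.81) and Gja1 (r = 0.65, rho = 0.88), and without Normal-22 and 5xFAD-21 these were 0.62 and 0.51. These correlations are descriptions with no test, and the plot of correlations between genes shows all pairs.

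**Figure D3:**
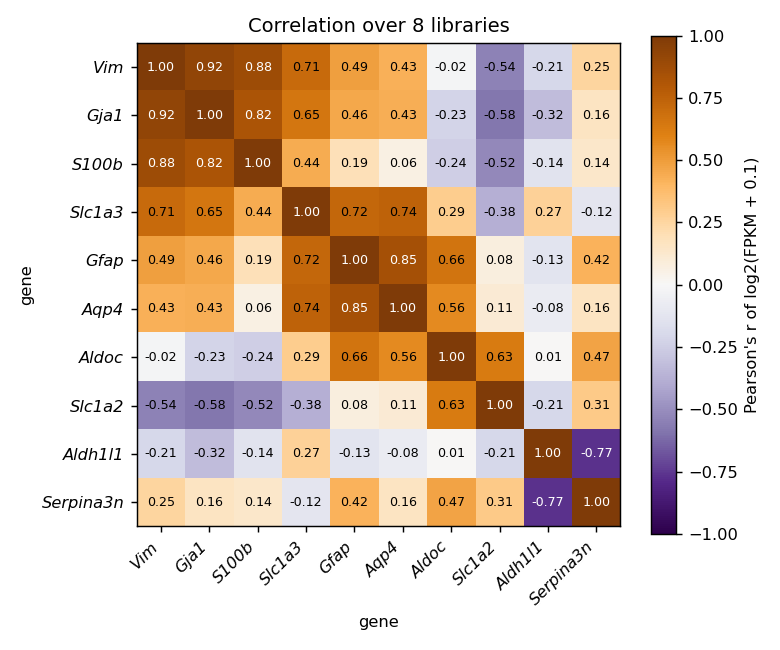
Pearson's r between each pair of the 10 genes over the 8 libraries, on log2(FPKM + 0.1). Values are 0.82 to 0.92 among Vim, Gja1 and S100b and 0.85 between Gfap and Aqp4, and Slc1a3 has 0.65 to 0.74 with Gfap, Aqp4, Vim and Gja1. Aldh1l1 and Serpina3n have -0.77, but Spearman's rho was -0.07, and r was 0.36 without 5xFAD-1 and 5xFAD-3.

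The mean of Vim, Gja1 and S100b lay below its level over all libraries by 0.80 on the log2 scale in Normal-22 and by 1.06 in 5xFAD-21, and above it in Normal-11, Normal-21 and the other 5xFAD libraries. These are genes that fibroblasts, vessels or Schwann cells also express, and the 2 libraries were the ones low in such markers, and in microglia and bone markers too. With the endothelium list, r was 0.84 for Vim, 0.89 for Gja1 and 0.86 for S100b, and without Normal-22 and 5xFAD-21 it was 0.14, 0.42 and 0.31. With the fibroblast list, r was 0.69, 0.77 and 0.85, and without Normal-11 and 5xFAD-21 it was 0.54, 0.46 and 0.90. Other lists were as high, with r of 0.72, 0.79 and 0.86 for microglia and 0.76, 0.82 and 0.82 for bone. For Schwann cells r was 0.69, 0.67 and 0.53, and for pinealocytes -0.10, -0.08 and -0.35. The part of these cells in the 3 genes was not tested.

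The mean of Gfap, Aqp4 and Slc1a3 lay above its level over all libraries by 0.69 in 5xFAD-2 and 0.79 in 5xFAD-3, at 0.0081 in 5xFAD-1, and below it in the 4 wild type libraries and in 5xFAD-21, where it was lowest (-0.49). For Gfap, r with the endothelium list was 0.26. Slc1a2 ran against several lists, with r = -0.89 for Schwann cells (-0.92 without Normal-11 and 5xFAD-2) and -0.82 for smooth muscle (-0.79 without Normal-11 and 5xFAD-21). With the oligodendrocyte list r was -0.52, with brown fat -0.16, and with choroid plexus -0.40, which was 0.20 without Normal-22 and 5xFAD-1. Along the pinealocyte list r was 0.69, and 0.48 without Normal-22 and 5xFAD-1. For Aldoc, r with the pinealocyte list was 0.55, and 0.73 without Normal-22 and 5xFAD-1. Aldoc had r = -0.66 with fibroblasts, -0.66 with smooth muscle and -0.58 with microglia. Without Normal-11 and 5xFAD-21 these were -0.35, -0.28 and -0.24. Other lists went the other way when libraries were left out. With bone, endothelium and neutrophil markers r was -0.57, -0.41 and -0.37, and -0.86, -0.67 and -0.54 without Normal-22 and 5xFAD-21. With Schwann cells it was -0.43, and 0.25 without Normal-11 and 5xFAD-2. The part of these cells in the level of Aldoc was not tested. Aldh1l1 and Serpina3n had r = -0.77, and 0.36 without 5xFAD-1 and 5xFAD-3. Of the 10 genes, 4 were highest in 5xFAD-2 and 3 were lowest in 5xFAD-21, so pools of the same genotype stood at both ends.

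**Figure D4:**
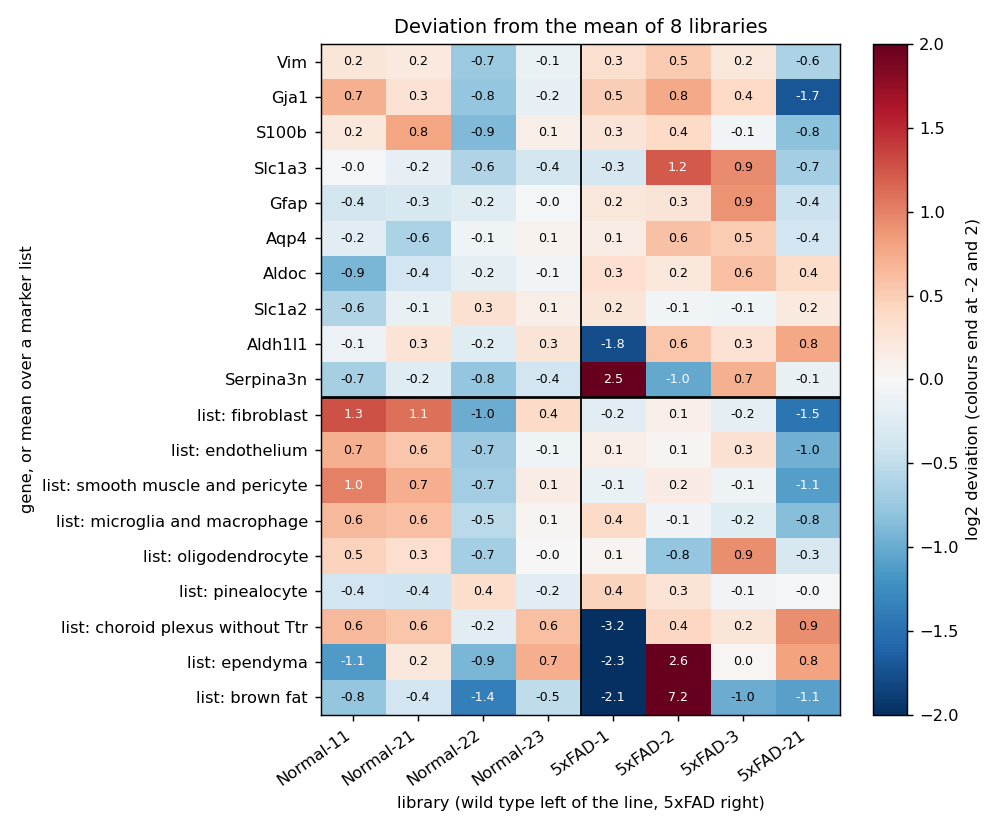
Log2 deviation of each gene (upper rows), and of the mean of each marker list (lower rows), from its mean over the 8 libraries, one column per library. Vim, Gja1 and S100b are low in Normal-22 and 5xFAD-21, where the fibroblast, endothelium, smooth muscle and microglia lists are low too, and Aldoc is below its mean in each wild type library and above it in each 5xFAD library.

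For each gene, the 3 protein-coding genes most like it over the 8 libraries are given as a description, chosen as the highest correlations among all genes tested and so high by choice. They were Pamr1 (r = 0.91), Tmod2 and Hyou1 for Gfap, Ammecr1 (0.92), Txlng and Rnf103 for Aqp4, and Gpt2 (0.94), Slc22a6 and Cxadr for Slc1a3. They were Cnpy4 (0.98), Sec11a and Lyve1 for Vim, Cfb (0.99), Aspa and Cyp1b1 for Gja1, and Clic1 (0.98), Lrrn4cl and Dcn for S100b. Lyve1 marks lymphatic endothelium and perivascular macrophages, and Dcn, decorin, is a fibroblast gene. For Aldh1l1 they were Rab11fip4 (0.99), Baiap2l1 and Myo5c, for Slc1a2 Morn4 (0.996), Poldip3 and Commd9, for Aldoc Ubxn2b (0.96), Ripk4 and Cyp1a1, and for Serpina3n Plppr3 (0.96), Pias1 and Fkbp2.

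Other genes of astrocyte identity were read as a list of 36, of which 31 passed the filter. Their log2 fold change was above 0 for 22 and below 0 for 9 (48.74% of all genes lay above 0), with a median of 0.09, and 4 were higher at an unadjusted p under 0.05 and 0 lower, beside 4.57% and 3.36% of all genes. Fabp7, the fatty acid binding protein of radial glia and immature astrocytes, was 203 ± 134 FPKM in wild type and, in 5xFAD, 520 ± 220 FPKM (log2 fold change 1.44 ± 0.47, limma adjusted p = 0.569). Normal-22, at 399 FPKM, lay above 5xFAD-21, at 249 FPKM. Acsbg1, an acyl-CoA synthetase of astrocytes and 1 of these 4, was low, at 0.659 ± 0.143 and 1.69 ± 0.691 FPKM (log2 fold change 1.19 ± 0.34, limma adjusted p = 0.546). Its wild type mean lay below the filter of 1 FPKM, so it passed only through its 5xFAD values. It was the one gene of the list whose 5xFAD libraries were all above wild type, beside 2.1% of all genes. The lipase gene Pla2g7 had a log2 fold change of 0.65 ± 0.20 (limma adjusted p = 0.546), and Mlc1, a membrane protein of astrocyte endfeet, of 0.67 ± 0.29 (limma adjusted p = 0.626). Glul, glutamine synthetase, was 350 ± 40.4 and 381 ± 34.8 FPKM. Hepacam, Ntsr2, Cldn10, Cbs and Gpc5 did not pass the filter, with means of 0.326 to 0.993 FPKM.

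Of 9 genes of radial and Müller glia, a list that holds Slc1a3 and Glul too, all had a log2 fold change above 0, beside 48.74% of all genes, with a median of 0.22, and 1 was higher at an unadjusted p under 0.05, beside 4.57%. This was Rlbp1, the retinaldehyde-binding protein of Müller glia, which pinealocytes also express. It was 7.90 ± 2.32 FPKM in wild type and, in 5xFAD, 13.9 ± 2.58 FPKM (log2 fold change 0.83 ± 0.21, limma adjusted p = 0.539). Every 5xFAD library lay above wild type, as for 2.1% of all genes. The Notch target genes Hes1 and Hes5 had log2 fold changes of 0.39 ± 0.19 and 0.61 ± 0.33. Of 10 other intermediate filament genes tested, 8 lay above 0, beside the same 48.74%, and 2 were higher at an unadjusted p under 0.05, beside 4.57%. They were the heavy neurofilament Nefh (3.65 ± 1.60 against 7.75 ± 2.29 FPKM, log2 fold change 1.10 ± 0.31, limma adjusted p = 0.546) and Synm, synemin, a partner of Gfap and Vim (0.36 ± 0.14, limma adjusted p = 0.609). Ina and Lmnb1 had log2 fold changes of 0.60 ± 0.27 and 0.18 ± 0.15.

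Genes of reactive states showed no common direction. Of 10 genes raised in several forms of reactivity, 7 lay above 0 and 3 below, with a median of 0.09, beside 48.74% of all genes above 0. The small heat shock protein gene Hspb1 was the one higher at an unadjusted p under 0.05, beside 4.57% of all genes (19.7 ± 5.09 against 41.2 ± 19.3 FPKM, log2 fold change 0.97 ± 0.34, limma adjusted p = 0.593). Cxcl10, Timp1 and Osmr had log2 fold changes of -0.96 ± 1.08, 0.66 ± 1.21 and 0.24 ± 0.50. Of 11 genes of the state called A1, 4 lay above 0 and 7 below, with a median of -0.17, and none had an unadjusted p under 0.05. Iigp1, an interferon-induced GTPase, had the smallest p (log2 fold change -0.75 ± 0.38), followed by Fbln5 (0.47 ± 0.27), Serping1 (0.56 ± 0.41) and H2-D1 (-0.28 ± 0.22). Of 10 genes of the state called A2 that passed the filter, 6 lay above 0 and 4 below, with a median of 0.21. Sphk1, Cd109, Cd14 and Ptgs2 led by p, with log2 fold changes of 0.56 ± 0.47, 0.63 ± 0.54, 0.63 ± 0.56 and 0.53 ± 0.54.

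Of 8 genes of the astrocyte state described in amyloid models, 6 lay above 0 and 2 below, with a median of 0.07, beside 48.74% of all genes above 0. Apoe, the lipid carrier, was among the most abundant of all, at 1067 ± 74.2 FPKM in wild type pools and 1153 ± 118 FPKM in 5xFAD pools, and Clu was 644 ± 167 and 641 ± 73.0 FPKM. Cd9 and Ctsb had log2 fold changes of 0.22 ± 0.24 and 0.11 ± 0.19. Of 11 genes of cytokine signalling to astrocytes, 6 lay above 0 and 5 below, with a median of 0.0049, and Stat3 itself was 28.3 ± 1.46 and 28.5 ± 3.29 FPKM (log2 fold change 0.0049 ± 0.11). Jak2, Socs3, C3 and Cntfr had log2 fold changes of -0.20 ± 0.21, 0.56 ± 0.64, 0.72 ± 0.98 and -0.33 ± 0.40. Those of Socs3 and C3 rested on 5xFAD-2. Socs3 was 19.9 FPKM there and at most 4.74 FPKM elsewhere, and C3 was 38.0 FPKM there and at most 3.35 FPKM elsewhere. None of the genes in these lists passed an adjusted p of 0.05, and some lists share genes, Apoe, Clu, Osmr and Ggta1 among them. All 8 microglia markers tested lay below 0, with a median of -0.35, beside 48.74% of all genes above 0. This was not particular to microglia. All 6 fibroblast markers (median -0.67) and all 6 markers of smooth muscle and pericytes (median -0.57) lay below 0 too. Of 10 pinealocyte markers, 7 lay above 0 and 3 below. All 4 brown fat markers lay above 0, but this rested on 5xFAD-2. The mean log2 deviation of that list was 7.23 in 5xFAD-2 and below 0 in every other library of both genotypes. The part of other cells in the lists was not tested.

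**Figure D5:**
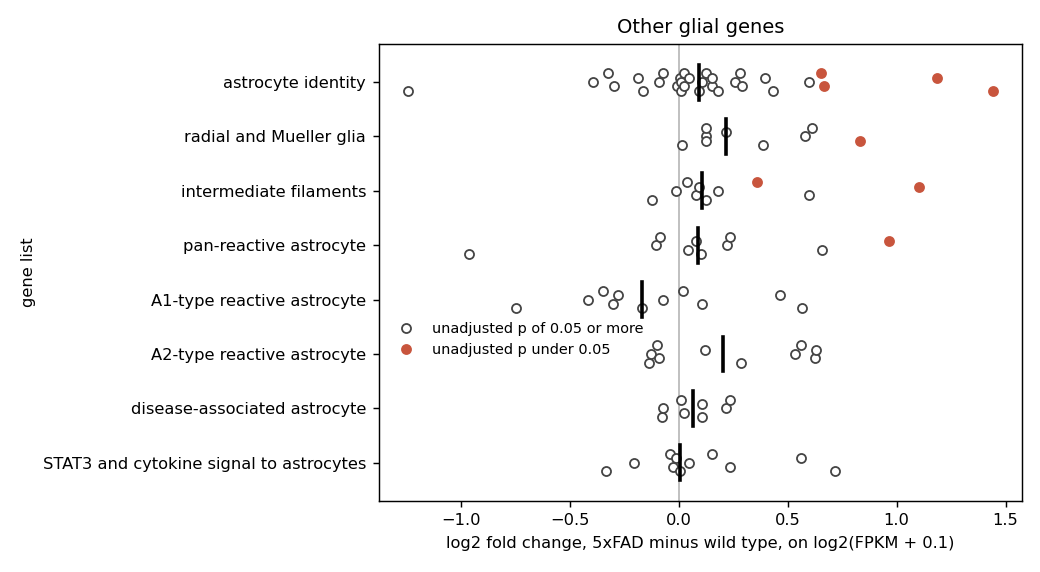
Log2 fold change of each other glial gene that passed the filter, on the log2(FPKM + 0.1) scale, 5xFAD minus wild type, by list. Filled points have an unadjusted p under 0.05 and the black bar is the list's median, which is 0.22 for radial and Müller glia and -0.17 for the A1 genes.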

How the data were processed

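Per the labels and the study's methods, the authors extracted total RNA, removed ribosomal RNA, made stranded paired-end libraries, trimmed reads with Trimmomatic, aligned them with STAR to GRCm38.p6 and computed the deposited FPKM values with Cuffnorm on GENCODE release M17. Tool versions, the Cuffnorm normalization and the strand setting are not given in the sources used here, so genes that overlap another (Gfap, Aqp4, Slc1a3, Slc1a2, Aldh1l1 and S100b) may hold some of its reads. The study gives the reads sequenced per library, but the table holds no counts, so the number of reads behind a value is unknown. Within protein-coding genes the FPKM values summed to between 320107 and 391072 per library. Over all genes they were less even. They summed to 886793 in 5xFAD-3 and 1020486 in 5xFAD-1, and to between 1497493 and 1947795 in the other libraries. The cause was not tested.

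Protein-coding genes, by GENCODE M21, with a mean of at least 1 FPKM (13075 genes) were tested on log2(FPKM + 0.1) with limma 3.58.1 (trend, two-sided) in R 4.3.3, 4 against 4 libraries, with Benjamini-Hochberg adjustment, after the procedure was tested on simulated data. The labels call the libraries biological replicates. Fold changes of low genes are understated by the pseudocount. The 5 ratios (70 splits) and the 9 level differences (256 sign changes) were tested by exact permutation in Python 3.11.15. Promoter windows are from RefSeq (GRCm38.p6). Named genes were all 10 members, up to 4 genes of each list with the smallest p, paralogs that passed the filter, and the 3 most correlated genes. Glul, Clu, Stat3 and genes below the filter were named beside this rule, after their values were seen. The members and lists were chosen with earlier results of these data known. Alternatives were other pseudocounts, filters, scalings, covariates and gene sets, and libraries left out.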

Additional observations from a re-analysis of the deposited data

How the results depend on the processing

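None of the 10 genes passed an adjusted p of 0.05 under any of the 21 alternatives, and Aldoc kept a log2 fold change of 0.60 to 0.94 in all of them, with adjusted p from 0.118 to 0.991. Protein-coding genes called numbered 4, and 5 with a pseudocount of 1, with no trend and with the class column of the table. They numbered 7 with no filter and 28 without Normal-22 and 5xFAD-21 (an alternative chosen after seeing the data). With 1 library left out they numbered 4 to 90, the 90 without Normal-22. With all genes of the table, which are not only protein-coding, 8 of 15719 genes were called. Genes of the 10 higher at an unadjusted p under 0.05 numbered 1, and 3 without Normal-22 and 5xFAD-21 (Gfap, Aqp4 and Aldoc, beside 8.11% of all genes), and 1 to 4 with 1 library left out, the 4 without 5xFAD-21 (beside 4.05%). With the set of titles as a term, 1 was lower (Gja1, beside 6.98%). Genes with every 5xFAD library above numbered 1, and 3 without Normal-22 and 5xFAD-21 (beside 11.1% of all genes), and 1 to 3 with 1 library left out (beside 2.47% to 9.14%), the 3 without 5xFAD-21 (beside 3.79%). The neighbours in the order of levels that differed numbered 3, and 0 to 3 with 1 library left out, where fewer sign changes raise the smallest p.

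The sign of the log2 fold change turned for Aldh1l1 (0.25) and Vim (-0.15) with the set of titles as a term and for Gja1 (0.27) without Normal-22 and 5xFAD-21. With 1 library left out it ranged from -0.018 to 0.29 for Slc1a2, from -0.30 to 0.53 for Gja1, from -0.42 to 0.15 for S100b and from -0.36 to 0.50 for Aldh1l1, and the log2 difference of the ratio of Serpina3n to Gfap from -0.12 to 1.08. The cause was not tested. The medians of all genes moved by less than 0.1 under each scaling. Slc1a3 had no value at a minimum mean of 5 FPKM. The correlations of same-numbered deviations from the group means were -0.04, 0.20, -0.34 and 0.25. Normal-22 and 5xFAD-21, which carry different replicate numbers, had 0.38. The pools also differed in marker levels, so these correlations cannot decide whether replicate numbers pair the libraries. With the replicate block 4 protein-coding genes were called, 0 of the 10 among them, with Aldoc at 0.77 (limma adjusted p = 0.844). Limits from read counts could not be given, because the table holds FPKM values without them.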
